A study of Rattus norvegicus with 3 samples.

Results

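Genes of glycolysis and of the hypoxia response were followed in the rat line FRSK, keratinocytes that derive from fetal skin. They were chosen by name: 43 symbols of glycolytic enzymes, pyruvate dehydrogenase and its kinases, the oxygen-sensing system and known hypoxia targets. Of these, 42 had a named probe set, out of 15037 named genes on the array, and each had 1 probe set. Egln1, an oxygen-sensing prolyl hydroxylase, is not analysed here. The 3 cultures were measured, with 1 whole-transcript array each. The Met-ENK culture received the opioid pentapeptide Met-enkephalin at 100 nM for 24 h, the β-END(1-9) culture received that fragment of β-endorphin at the same dose and for the same time, and the control culture was unstimulated. Both peptides begin with the same residues, and the β-endorphin fragment carries further ones. All 3 cultures were the same line in medium with 10% serum at 37 °C and 5% CO2, and it is not stated in the sources used here if the control was given vehicle or how long it was kept.

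Glycolysis splits glucose into pyruvate in the cytosol, and lactate dehydrogenase turns pyruvate into lactate when it does not enter mitochondria. Oxygen controls this route through the hypoxia-inducible factors (HIF). Prolyl hydroxylases mark the HIF alpha subunits for degradation while oxygen is present, and at low oxygen the subunits persist and raise transcription of glycolytic enzymes, of Vegfa and of membrane carbonic anhydrases. Keratinocytes of the epidermis lie away from blood vessels and are known for an active glycolysis.

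Overall signal was alike, with array medians over 23188 transcript clusters of 5.96 for Met-ENK, 5.97 for β-END(1-9) and 5.93 for control on the log2 scale. With 1 array per group there is no measure of the spread between cultures, so no difference below has a test, a p-value or a replicate check. A signal was read against the 23 background probe sets of the array, which lay between 2.51 and 7.57. The markers matched the label, since all 5 measured markers of basal keratinocytes (Krt14, Krt15, Itga6, Itgb4 and Lamb3) lay above that range on every array, and 0 of the 2 measured markers of differentiated keratinocytes (Krt1 and Ivl) did. Above it were also 2 of 7 fibroblast markers (Col1a1 and Col3a1), 1 of 4 melanocyte markers (Mitf), 1 of 6 immune markers (Cd14) and 0 of 5 endothelial markers. In the order Met-ENK, β-END(1-9) and control, summed log2 signals were 75.1, 74.6 and 75.0 for the basal keratinocyte markers, 12.47, 11.00 and 10.87 for those of differentiated keratinocytes and 40.3 on each array for the fibroblast markers. They were 22.4, 22.4 and 21.9 for melanocyte, 19.4, 20.8 and 19.3 for endothelial and 26.9, 27.5 and 27.7 for immune markers. The part of these markers in the differences below was not tested. Signals come from the total RNA of a culture, where fewer cells with a transcript and less of it per cell cannot be told apart.

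Signals of the glycolysis and hypoxia genes differed little between the 3 arrays. Of the 42, 29 lay above the background range on every array and 13 lay within it on every array. A level filter, a mean log2 signal of at least 6.41 (the median of named genes), was passed by 33 of them and by 7519 of all named genes. The counts that follow are over these. Against control, 0 of 33 were at least 1.5-fold (0.58 on the log2 scale) higher with Met-ENK and 0 were 1.5-fold lower, beside 0.692% and 6.02% of all genes passing the filter. With β-END(1-9) the counts were again 0 and 0, beside 0.559% and 2.27%. Between Met-ENK and β-END(1-9), 1 gene was past 1.5-fold higher, Car12, and 0 were lower, beside 1.89% and 2.70%. At a lower limit of 0.32 on the log2 scale, 2 of 33 were higher with Met-ENK than in control (5.55% of all genes) and 2 were lower (15.6%). With β-END(1-9), 0 were higher (2.47%) and 2 lower (11.8%) at that limit. Between Met-ENK and β-END(1-9), 1 was higher (10.9%) and 0 lower (10.0%). These counts of 0 to 2 genes are small and were not tested against the shares over all genes, so no departure from those shares is claimed. Against control, the median difference over the 42 genes was 0.00 for Met-ENK, and for the β-endorphin fragment it was -0.01. Between the peptides it was 0.00. The median of all named genes was 0.00 in each comparison.

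**Figure D1:**
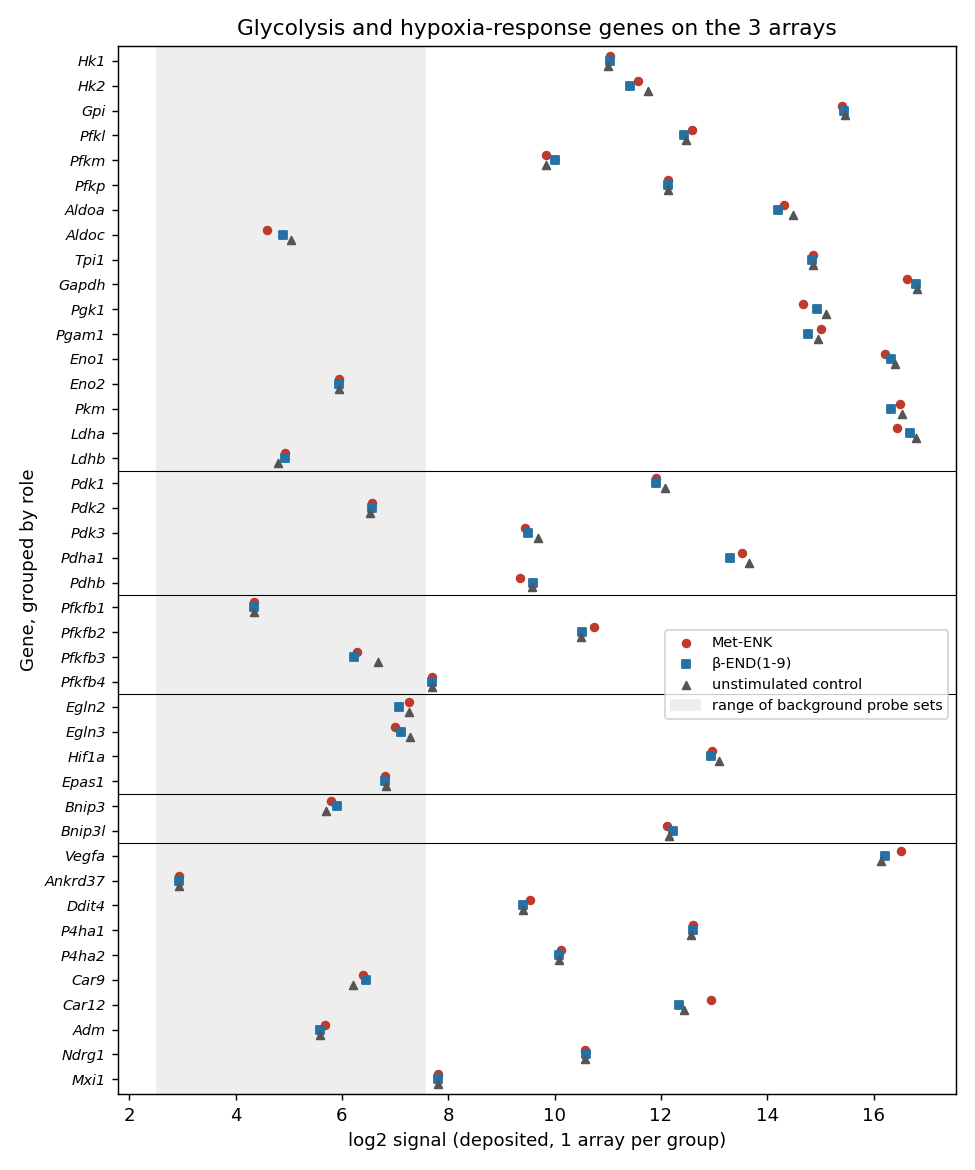
Deposited log2 signals (horizontal axis) of the 42 genes, in rows grouped by role, on the Met-ENK array (red circles), the β-END(1-9) array (blue squares) and the unstimulated control array (grey triangles), with the background range, 2.51 to 7.57, shaded. In most rows the 3 symbols nearly coincide, and Car12, Vegfa, Ldha and Pgk1 show the Met-ENK symbol set apart.

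Exactly equal signals were common and limit what small differences can say. Pfkp, Pfkfb4 and Mxi1 among the genes passing the filter, and Eno2, Pfkfb1 and Ankrd37 among the others, had 1 value on all 3 arrays. Differences of exactly 0 made up 21.2% of the 33 genes for Met-ENK against control and 15.2% for β-END(1-9) against control, against 21.6% and 25.1% of all genes passing the filter. In all, 11 of the 33 varied by less than 0.1 over the arrays. The share of all genes passing the filter that varied so little was not counted, so this count is not a trait of the set.

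The 6 genes passing the filter that differed by at least 0.32 in a comparison, Car12, Vegfa, Pgk1, Ldha, Hk2 and Pdha1, carry the differences described below. Their upstream sequences are shown to set them beside the core motif that HIF is known to bind, ACGTG or GCGTG. The sequences are from RefSeq on the GRCr8 assembly and hold the 250 bases before the start of each gene, 5′ to 3′ on the strand of the gene, with every match to either motif, on either strand, in capitals. They come from chr8:76169565-76169814 (plus strand) for Car12, chr9:22452604-22452853 (plus strand) for Vegfa, chr1:106507842-106508091 (plus strand) for Ldha, chr4:116841276-116841525 (minus strand) for Hk2 and chrX:38508908-38509157 (plus strand) for Pdha1. The RefSeq promoter table held 39 of the 42 genes, and Pgk1, Bnip3l and Ndrg1 were without an entry.
Car12: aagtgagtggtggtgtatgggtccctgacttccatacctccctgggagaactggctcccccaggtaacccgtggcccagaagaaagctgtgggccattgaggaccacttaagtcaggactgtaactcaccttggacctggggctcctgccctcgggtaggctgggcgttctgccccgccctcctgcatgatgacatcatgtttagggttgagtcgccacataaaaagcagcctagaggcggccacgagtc
Vegfa: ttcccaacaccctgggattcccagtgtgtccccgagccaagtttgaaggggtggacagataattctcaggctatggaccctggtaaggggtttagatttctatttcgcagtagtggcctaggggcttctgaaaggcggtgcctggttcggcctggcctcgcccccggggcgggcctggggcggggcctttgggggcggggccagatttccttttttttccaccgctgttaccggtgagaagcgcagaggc
Ldha: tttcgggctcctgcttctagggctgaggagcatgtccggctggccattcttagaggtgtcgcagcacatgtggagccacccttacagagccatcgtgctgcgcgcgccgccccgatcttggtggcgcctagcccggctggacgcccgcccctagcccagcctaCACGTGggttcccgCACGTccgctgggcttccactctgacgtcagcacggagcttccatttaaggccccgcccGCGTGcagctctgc
Hk2: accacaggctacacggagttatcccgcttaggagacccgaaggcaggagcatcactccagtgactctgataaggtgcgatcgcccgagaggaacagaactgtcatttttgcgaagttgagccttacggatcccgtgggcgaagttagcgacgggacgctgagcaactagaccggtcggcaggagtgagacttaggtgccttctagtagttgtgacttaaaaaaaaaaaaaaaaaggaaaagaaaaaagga
Pdha1: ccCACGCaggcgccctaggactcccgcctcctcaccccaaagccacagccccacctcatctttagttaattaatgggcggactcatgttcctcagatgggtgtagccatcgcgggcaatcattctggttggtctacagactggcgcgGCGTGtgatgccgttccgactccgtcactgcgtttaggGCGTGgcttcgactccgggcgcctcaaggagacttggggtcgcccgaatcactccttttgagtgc

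Overlapping matches were counted singly, so the palindrome in the Ldha sequence counts as 2. Ldha held 4 matches upstream, starting 87, 86, 73 and 14 bases before the gene start, and Pdha1 held 3, at 248, 103 and 65. Car12, Vegfa and Hk2 had 0 matches in these windows, while the 50 bases after the Car12 start, not shown, held 4. In the whole window of 250 bases before and 50 after the start, 26 of 39 promoters (66.7%) held either motif, against 64.4% of 6372 promoters of genes passing the filter and 42.9% of all 27457 promoters. With only genes passing the filter on both sides, it was 19 of 30 (63.3%) against the 64.4%. The ACGTG form alone, counted apart after the values were seen, was in 21 of 39 (53.8%), against 27.1% of genes passing the filter and 19.7% of all promoters. The 5 genes shown were chosen for their differences, and no relation between matches and differences was tested. A match describes letters in a window and not a bound site, and a window without a match says nothing about sequence outside it.

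The hypoxia targets that belong to none of the other roles numbered 10, and 7 of them passed the filter. Of the 7, 5 were higher than in control with Met-ENK, 0 lower and 2 equal, with a median difference of 0.04, beside 32.7% higher and 45.7% lower over all genes passing the filter. With β-END(1-9), 3 were higher, 1 lower and 3 equal, with a median of 0.00, beside 18.8% and 56.1%. These counts leave out HIF targets described under other roles, among them Pdk1 at -0.17 and Egln3, within the background range, at -0.29 for Met-ENK against control. The glycolytic enzymes are left out too, and of 14 passing the filter 8 were lower, 3 higher and 3 equal with Met-ENK, with Pgk1 at -0.44 and Ldha at -0.35. The counts therefore do not describe HIF targets as a whole. Among the 7, only Car12 and Vegfa differed from control by more than 0.14 with Met-ENK. Car12, a carbonic anhydrase of the cell surface that hydrates carbon dioxide outside the cell, had log2 signals of 12.95 with Met-ENK, 12.34 with β-END(1-9) and 12.43 in control. The Met-ENK array thus stood alone on the high side, and the other 2 arrays were close. The Car12 difference was 0.52 for Met-ENK against control, a ratio of 1.43, and 0.61 for Met-ENK against β-END(1-9), a ratio of 1.52. It was -0.09 for β-END(1-9) against control. Among all 7519 genes passing the filter, 1.24% were at least as far up as Car12 in Met-ENK against control, and 1.64% in Met-ENK against β-END(1-9). The difference between the peptides passed 1.5-fold on the deposited values, but was 0.56 after a new quantile normalization, 0.54 after removal of the trend along signal level and 0.56 after removal of the trend along gene size, all just short of it.

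Vegfa, the growth factor that drives the formation of blood vessels, had signals of 16.51 with Met-ENK, 16.22 with β-END(1-9) and 16.14 in control. The order of the arrays has Met-ENK again at the top, with the other 2 arrays within 0.08. The difference was 0.37 for Met-ENK against control, a ratio of 1.29, and 0.29 for Met-ENK against β-END(1-9). As far up as Vegfa against control were 4.03% of all genes passing the filter. The difference ranged from 0.34 to 0.45 over the other scalings tried.

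The other targets differed little. Ddit4, a stress-induced inhibitor of mTOR signalling, had 9.54 with Met-ENK and 9.41 on both other arrays. P4ha1 and P4ha2, alpha subunits of the collagen prolyl hydroxylases, varied by 0.04 over the arrays, with P4ha1 at 12.61, 12.61 and 12.57 and P4ha2 at 10.12, 10.08 and 10.08 in the order Met-ENK, β-END(1-9) and control. Ndrg1, a stress-response gene, had 10.57, 10.59 and 10.57 in that order. Mxi1, an antagonist of Myc, had 7.81 on each array. These 5 known HIF targets varied by at most 0.14 over the arrays. Car9, the paralog of Car12 and a textbook HIF target, lay within the background range at 6.40, 6.45 and 6.21. The peptide hormone gene Adm (5.68, 5.59 and 5.59) and Ankrd37 (2.94 on each array) were also within it. Signals at that level do not show whether a transcript was present.

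**Figure D2:**
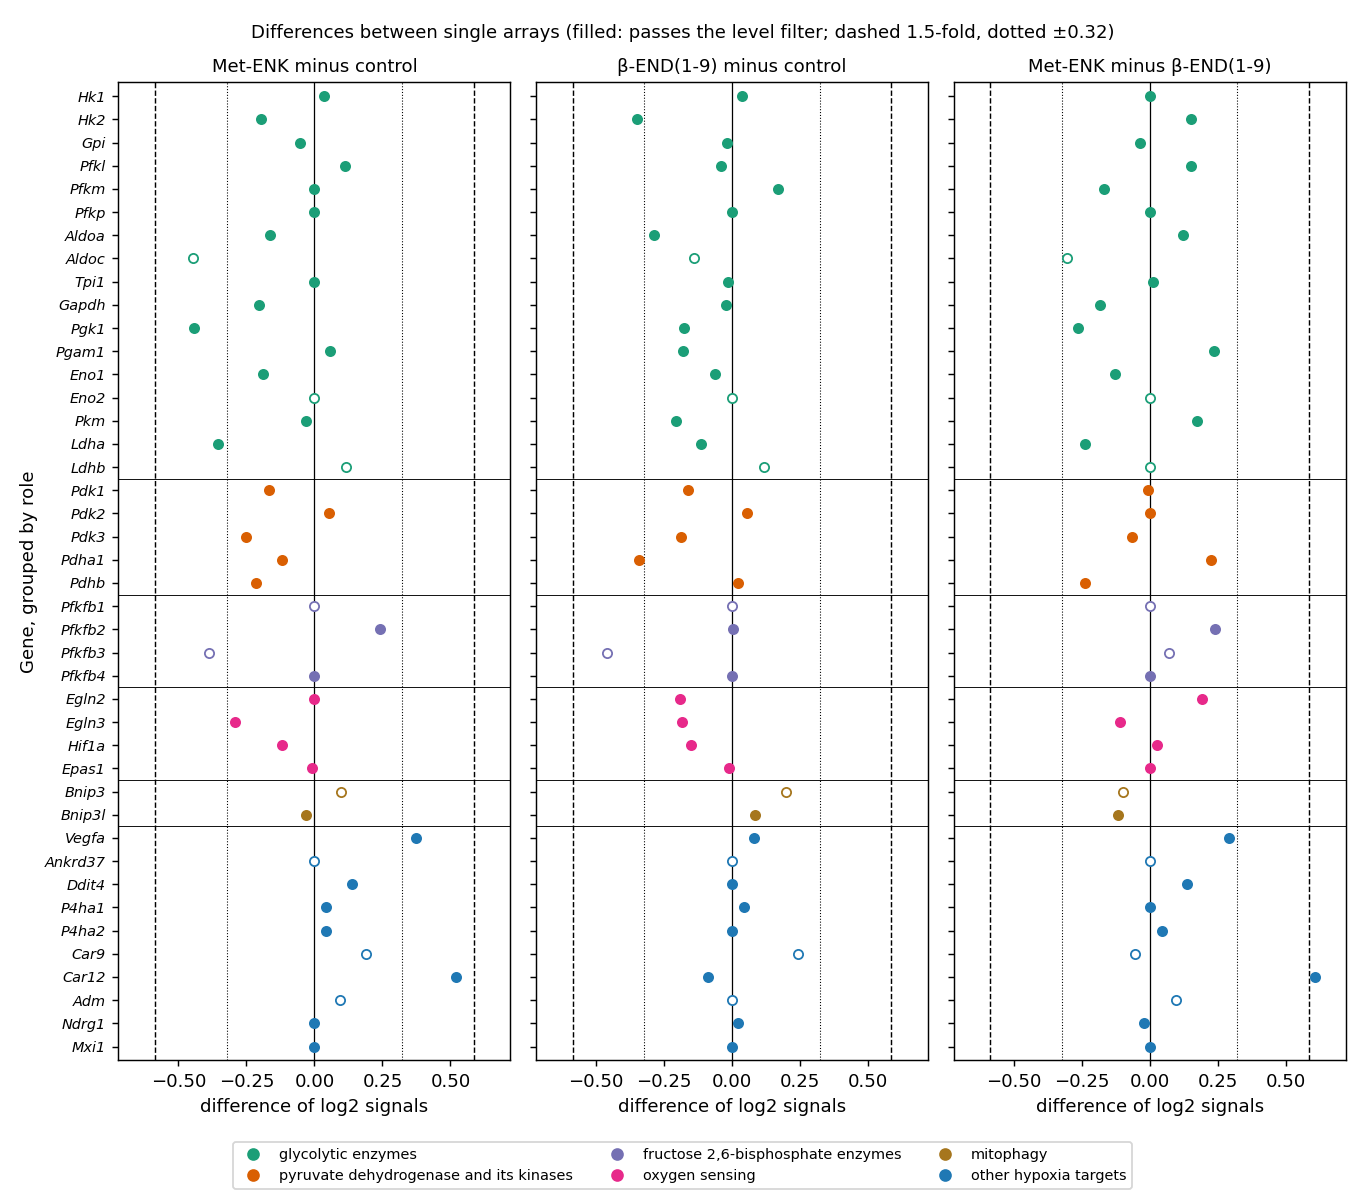
Differences of log2 signals (horizontal axes) between single arrays for the 42 genes, in rows grouped and coloured by role, for Met-ENK minus control, β-END(1-9) minus control and Met-ENK minus β-END(1-9). Filled points pass the level filter and open points do not, dashed lines mark 1.5-fold and dotted lines 0.32, and Car12 in the right panel, at 0.61, is the point past a dashed line.

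Of the 17 glycolytic enzymes measured, 14 passed the filter. Of the 14, 3 were higher, 8 lower (57.1%) and 3 equal with Met-ENK against control, with a median difference of -0.04. With β-END(1-9) 2 were higher, 11 lower (78.6%) and 1 equal, with a median of -0.05. Both comparisons use the same control array. Over all genes passing the filter, 45.7% were lower and 32.7% higher with Met-ENK, and 56.1% were lower and 18.8% higher with β-END(1-9), so a lean to the low side was seen over all genes too. Gpi, Pfkl, Tpi1, Gapdh and Eno1 are among the 11, but after a new quantile normalization lay above control. They were then at 0.050, 0.034, 0.113, 0.060 and 0.027 for the fragment. The count of lower enzymes thus depends on the scaling, and the shares over all genes were not counted again under it. Among the 14, the lowest enzyme was Pgk1 with Met-ENK and Hk2 with β-END(1-9).

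With Met-ENK, the lowest enzymes among those passing the filter were Pgk1 and Ldha. Pgk1, phosphoglycerate kinase, one of the enzymes that make ATP in glycolysis, had signals of 14.66 with Met-ENK, 14.93 with β-END(1-9) and 15.11 in control. The Met-ENK array was lowest and the control array highest. The Pgk1 difference was -0.44 for Met-ENK against control, a ratio of 0.736, -0.18 for β-END(1-9) against control and -0.26 between the peptides. Ldha, the lactate dehydrogenase subunit that favours lactate formation, had 16.45, 16.68 and 16.80 in the order Met-ENK, β-END(1-9) and control. Its differences ran in the same order as those of Pgk1, at -0.35 with Met-ENK against control, -0.11 with β-END(1-9) against control and -0.24 between the peptides. Gapdh, which oxidises glyceraldehyde phosphate and often serves as a loading control, had 16.62, 16.81 and 16.83. Eno1, the enolase, had 16.21, 16.34 and 16.40. In both, the Met-ENK array was lowest, at -0.20 for Gapdh and -0.19 for Eno1 against control. As low as Pgk1 or lower in Met-ENK against control were 10.2% of all genes passing the filter, and 13.9% were as low as Ldha.

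Other enzymes of the same stretch did not share this order. Pgam1, the mutase between Pgk1 and enolase, had 15.01 with Met-ENK, 14.77 with β-END(1-9) and 14.95 in control. Pkm, the pyruvate kinase, had 16.50, 16.32 and 16.53. For these it was the β-END(1-9) array that was low on the deposited values, at -0.18 for Pgam1 and -0.20 for Pkm against control, and Met-ENK was close to control. For Pgam1 this depends on the scaling. After a new quantile normalization it was at 0.20 with Met-ENK and -0.04 with the fragment, so that Met-ENK was further from control. Pkm was then at 0.05 and -0.12. Tpi1, which interconverts the triose phosphates, differed by at most 0.01, at 14.86, 14.85 and 14.86. Its probe set and that of Eno2 belong to sequence that the array design left unmapped.

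With β-END(1-9), the lowest enzymes were Hk2 and Aldoa. Hk2, the hexokinase that HIF is known to induce, had 11.57 with Met-ENK, 11.42 with β-END(1-9) and 11.77 in control. Both peptide arrays lay below control, with β-END(1-9) further down. The Met-ENK difference from control was -0.20. That of the fragment was -0.35, a ratio of 0.785, and 9.92% of all genes passing the filter were at least as low. For the fragment, Hk2 was at -0.25 after a new quantile normalization and -0.28 after removal of the trend along signal level. Aldoa, the muscle-type aldolase, followed the same order at 14.32, 14.20 and 14.48, or -0.16 and -0.29 against control. Hk1, the widely expressed hexokinase, had 11.05 on both peptide arrays and 11.01 in control. Gpi, the phosphoglucose isomerase, had 15.41, 15.45 and 15.46.

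Subunits of phosphofructokinase, the committed step, differed in order over the arrays. Pfkl, the liver type, had 12.58 with Met-ENK, 12.43 with β-END(1-9) and 12.47 in control. Pfkm, the muscle type, had 10.00 with β-END(1-9) and 9.84 on the other arrays, and Pfkp, the platelet type, 12.13 on each. The isoforms Aldoc, Eno2 and Ldhb stayed within the background range. Aldoc had 4.59, 4.90 and 5.04 in the order Met-ENK, β-END(1-9) and control, Eno2 had 5.94 on each array, and Ldhb had 4.92 with either peptide and 4.81 in control. Aldoc at -0.45 was the lowest difference of all 42 genes for Met-ENK, yet at a signal that cannot be separated from background.

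Pfkfb genes encode bifunctional enzymes that make and remove the main activator of phosphofructokinase. Pfkfb2 had 10.75 with Met-ENK and 10.51 on both other arrays, a difference of 0.24 from either. Pfkfb4 had 7.70 on each array. Pfkfb3, a hypoxia-induced form, had 6.29 with Met-ENK, 6.22 with β-END(1-9) and 6.68 in control, all within the background range, and Pfkfb1 had 4.34 throughout. The lower Pfkfb3 values, -0.39 and -0.46 against control, therefore rest on signals at background level.

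Pyruvate dehydrogenase commits pyruvate to mitochondria, and its kinases switch it off. Of the 5 genes measured, 4 were lower than in control with Met-ENK, and 3 of them with the fragment. Over all genes passing the filter, 45.7% were lower with Met-ENK and 56.1% with the fragment. Pdha1, its alpha subunit, had 13.53 with Met-ENK, 13.31 with β-END(1-9) and 13.65 in control. The fragment thus gave the lowest signal, at -0.34 against control, while Met-ENK was at -0.12. The -0.34 became -0.23 after a new quantile normalization and -0.26 after removal of the trend along signal level. Pdhb, the beta subunit, went the other way between the peptides, with 9.36, 9.60 and 9.57, or -0.22 against control for Met-ENK and 0.02 for the fragment. Pdk1, the kinase induced by HIF, had 11.90 with Met-ENK, 11.91 with β-END(1-9) and 12.07 in control. Pdk3 showed a similar pattern at 9.44, 9.50 and 9.69, with both peptide arrays below control. After a new quantile normalization Pdk1 was at -0.12 with Met-ENK and -0.05 with the fragment, and Pdk3 at -0.15 and -0.07. Pdk2 was within the background range at 6.57 with either peptide and 6.52 in control.

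The oxygen-sensing genes were lower or equal with both peptides, by small amounts, beside 45.7% (Met-ENK) and 56.1% (β-END(1-9)) lower over all genes passing the filter. Hif1a, which encodes the best known HIF alpha subunit, had 12.97 with Met-ENK, 12.94 with β-END(1-9) and 13.09 in control, which gives -0.12 and -0.15. HIF is regulated mainly through the stability of this protein, which an mRNA array does not measure. Egln3, a prolyl hydroxylase that is itself a HIF target, had 7.00, 7.11 and 7.29, and Egln2 had 7.27, 7.07 and 7.27. Epas1, another HIF alpha subunit, had 6.82 with either peptide and 6.83 in control. These 3 genes passed the level filter but lay within the background range. Of the mitophagy receptors, Bnip3l had 12.11 with Met-ENK, 12.23 with β-END(1-9) and 12.14 in control, and Bnip3, a standard HIF target, was at background level with 5.80, 5.90 and 5.70.

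**Figure D3:**
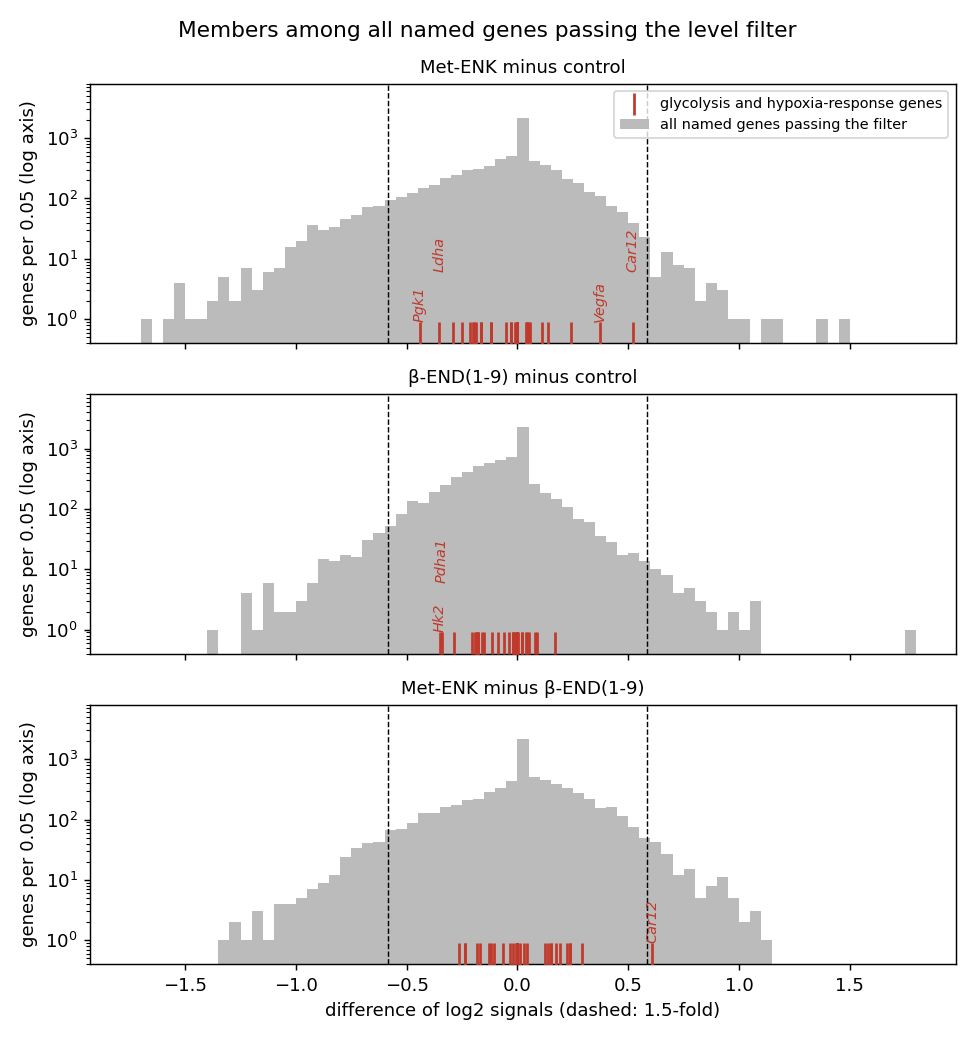
Numbers of all 7519 named genes passing the level filter (grey bars, log axis) by the difference of log2 signals in bins of 0.05, for the 3 comparisons, with the 33 glycolysis and hypoxia genes that pass it as red ticks and 1.5-fold as dashed lines. Genes that differ by at least 0.32 are named, and Car12 at 0.61 for Met-ENK minus β-END(1-9) is the tick beyond a dashed line.

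Over all genes passing the filter, gene size moved with the Met-ENK differences. Genomic span is the length a gene takes up on the chromosome, introns included. In the quintile with the shortest span, up to 8.07 kb, all genes passing the filter had a median difference of -0.09 between Met-ENK and control, and in the next, up to 16.9 kb, it was -0.03. In the 3 longer quintiles it was 0.00. The 7 glycolysis and hypoxia genes in the shortest quintile had a median of 0.00, and the 6 in the next had one of -0.15. Of the 7, Pdhb (5.94 kb), Gapdh (4.84 kb) and Aldoa (5.20 kb) were lower with Met-ENK, at -0.22, -0.20 and -0.16, while Egln2 (7.78 kb) and Tpi1 (3.53 kb) were at 0.00, Pgam1 (7.61 kb) at 0.06 and Ddit4 (2.1 kb) at 0.14. The lower enzymes Ldha, Eno1 and Pgk1 span 9.42, 11.4 and 16.0 kb. With the span trend of all named genes removed, Gapdh was at -0.18, Eno1 at -0.17, Ldha at -0.33 and Pgk1 at -0.43. With the trend fitted on genes passing the filter, a choice made after seeing the data, they were at -0.08, -0.12, -0.27 and -0.39. Vegfa, with a span of 15.3 kb, was at 0.38 and 0.42 in these fits, and Car12, with 55.7 kb, at 0.50 and 0.51. The part that size has in these differences was not tested.

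**Figure D4:**
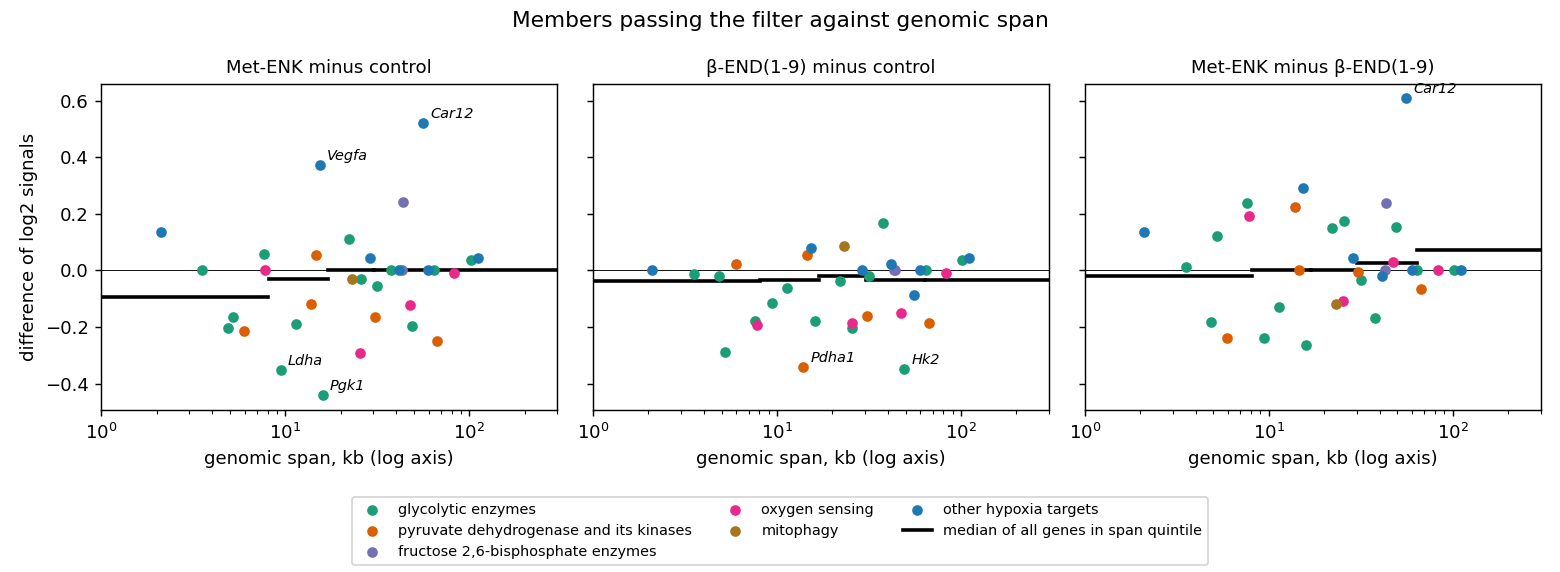
Difference of log2 signals (vertical axis) against genomic span in kb (log axis) for the 33 genes passing the filter, coloured by role, in the 3 comparisons, with black bars for the median of all genes passing the filter in each span quintile. In the left panel the median of the shortest quintile lies at -0.09, and Pgk1 (-0.44), Ldha (-0.35), Vegfa (0.37) and Car12 (0.52) lie far from the bars.

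Other genes of these pathways were described from lists drawn up by pathway. Over all genes passing the filter, 0.692% were 1.5-fold higher and 6.02% lower with Met-ENK against control. With the fragment the shares were 0.559% and 2.27%. The counts in the lists are small and were not tested against these shares. Of 27 further genes of glycolysis and pyruvate metabolism, 15 passed the filter, and 0 of these were 1.5-fold higher and 1 was lower in each comparison with control. That gene was Mpc1, a subunit of the carrier that brings pyruvate into mitochondria. It had 10.52 with Met-ENK, 10.95 with β-END(1-9) and 11.63 in control, or -1.11 and -0.68 against control, a larger difference than any of the 42. Of 39 further hypoxia genes, 22 passed the filter, of which 0 were 1.5-fold higher with either peptide, 3 were lower for Met-ENK and 1 for the fragment. These were Elob, an elongin subunit of the ligase that degrades HIF, at -0.62 with Met-ENK, Higd1a, a mitochondrial HIF target, at -0.66, and Siah2, a ligase that acts on prolyl hydroxylases, at -0.60 with either peptide. Siah2 had exactly 7.65 on both peptide arrays and 8.25 in control, so its 2 differences are 1 value. The 22 had a median difference from control of 0.04 for Met-ENK and -0.06 for the fragment.

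The pentose phosphate route and the tricarboxylic acid cycle are the pathways closest to glycolysis. Of 22 measured genes, 21 passed the filter, with medians against control of -0.13 for Met-ENK and -0.07 for the fragment, beside 0.00 and -0.02 for the 33 glycolysis and hypoxia genes. Past 1.5-fold lower with Met-ENK were 3 of the 21, beside 6.02% of all genes passing the filter. Taldo1, the transaldolase, was at -0.92, the succinate dehydrogenase gene Sdhd at -0.76 and the isocitrate dehydrogenase gene Idh3b at -0.66. Their spans were 10.3, 9.55 and 5.31 kb. Whether the 2 sets of genes differ was not tested.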

How the data were processed

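RNA from 3 cultures was profiled on Affymetrix whole-transcript arrays. The authors deposited 1 log2 signal for each probe set and array. RMA, the Transcriptome Analysis Console and the Affymetrix Expression Console are named in the submitters' processing notes, without versions. The genome build of the probe sets is not stated there. Groups were taken from the sample titles. Of 24834 probe sets, 1646 controls were left out, 15049 of the remaining 23188 transcript clusters had 1 gene symbol in the platform annotation and 8139 had none, and the named ones stood for 15037 genes. Where a gene had several probe sets, that with the highest mean stood for it. Differences of log2 signals were computed between arrays with Python 3.11.15 and pandas 2.3.3. With 1 array per group no test was run. The number of arrays limits the precision. Genes passed the filter at a mean log2 signal of 6.41 or more, and were counted from 1.5-fold on, with 0.32 on the log2 scale and 2-fold as other limits. Trends along signal level and genomic span (RefSeq, GRCr8) were removed by lowess (statsmodels 0.14.6, fraction 0.3). The removal of a span trend was checked on simulated data, and that of a trend along signal level was not. All genes of the named set are described: those past 1.5-fold, the 6 largest differences per comparison and the isoform with the highest signal of each step with full values. The set and lists were chosen with earlier results of these data known.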

Additional observations from a re-analysis of the deposited data

Results flagged for a closer look

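In 5 of the 42 genes the 2 peptides differed from control in opposite directions. The share of all named genes that did so was not counted, so whether 5 of 42 is usual is not known here. With 1 array per group the difference between the peptides was not tested, and both peptides share the control array. Car12 was at 0.52 for Met-ENK and -0.087 for the fragment, the widest gap of the 5. The pyruvate dehydrogenase gene Pdhb was at -0.22 for Met-ENK and 0.022 for the fragment. The mutase gene Pgam1 was at 0.058 for Met-ENK and -0.18 for the fragment. The phosphofructokinase gene Pfkl was at 0.11 for Met-ENK and -0.039 for the fragment. The mitophagy gene Bnip3l was at -0.031 for Met-ENK and 0.086 for the fragment. In each gene at least 1 value was within 0.1 of 0. Other scalings turned the sign of that value for Pfkl (0.034 for the fragment after a new quantile normalization), Pdhb (-0.016 for the fragment with each array centred on its median) and Bnip3l (0.0086 for Met-ENK after a new quantile normalization), but not for Car12 or Pgam1.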

How the results depend on the processing

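Each count past 1.5-fold and each median over the 42 genes was computed again under 5 other scalings, 1 of them (the span trend fitted on genes passing the filter) chosen after seeing the data, and under other filters and limits. Counts of genes higher or lower than control by any amount were not. The counts against control stayed at 0 except at the lower limit of 0.32, where 2 genes were higher and 2 lower with Met-ENK, and 2 lower with the fragment. That limit was counted on the deposited values only. After a new quantile normalization, the 2 genes lower with the fragment, Hk2 (-0.25) and Pdha1 (-0.23), fell short of it. Ldha with Met-ENK (-0.29) did so too. The single gene past 1.5-fold between the peptides, Car12, held with each array centred on its median, without the filter and above the background range, but the count was 0 after a new quantile normalization, after removal of the trend along signal level, after removal of either span trend and at 2-fold. The Met-ENK median of the 42 genes lay between -0.04 and 0.05, that of β-END(1-9) between -0.05 and 0.05 and that between the peptides between -0.05 and 0.02. Of 126 single differences, 15 moved by 0.1 or more under quantile normalization and 9 under the span trend fitted on genes passing the filter, and no difference of at least 0.1 changed sign (0 under each scaling). Averaging several probe sets was not run, since 0 of the 42 genes have more than 1. No paired analysis was possible because each group has 1 array. Depth, for arrays signal over background, limits the 13 genes within the background range.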
